A study of Homo sapiens with 6 samples.

Results

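The genes described here encode the aminoacyl-tRNA synthetases, the enzymes that join each amino acid to its tRNA. Members were found by their symbols in the deposited table. Where a symbol had more than 1 transcript, the one with the highest average across the 6 libraries stood for it. A symbol ending in 2 was taken as a mitochondrial enzyme and a symbol without that ending as a cytosolic one. This rule gave 36 of the 19223 symbols of the table, 20 cytosolic and 16 mitochondrial. All 36 passed the filter on low values, which asked for a value of 10 or more in 3 or more libraries, as did 12725 genes in all.

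A synthetase activates an amino acid with ATP and then transfers it to the end of the matching tRNA, which carries it to the ribosome. The cytosol and the mitochondrion translate separately, so most amino acids have a cytosolic enzyme and a separate mitochondrial enzyme, both encoded in the nucleus. A few genes serve both compartments, among them GARS and KARS in human cells, and for that reason these have no mitochondrial member here. When amino acids run short, uncharged tRNA activates the kinase GCN2, and the transcription factor ATF4 then raises many cytosolic synthetase genes.

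RNA was sequenced from LoVo, an established human colorectal adenocarcinoma line. There were 3 Control libraries, from cells given vehicle without DCC-2036, and 3 DCC-2036 libraries, from cells given 2.5 μM of DCC-2036 (rebastinib), a tyrosine kinase inhibitor. The labels give 48 h of treatment for both groups, whereas a legend in the study gives a shorter time for the treated cells. The labels do not say that libraries of a group came from separate cultures, so the p-values measure the spread between these samples, which may be technical.

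Values are a normalized signal per transcript that the authors had already adjusted between libraries, and the number of reads behind them is unknown. Column totals were 38997229, 39956227 and 40587145 in Control against 43279603, 45957597 and 48023306 in DCC-2036, so every DCC-2036 total was above every Control total. Low values also differed in form between the groups. In each DCC-2036 library 5697 transcripts were at 0, against 7844, 7940 and 8078 in the Control libraries. The lowest synthetase value in any library was 36.2, for PARS2 in DCC-2036 replicate 3. The part of these differences in the results was not tested.

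Epithelial markers were read first beside the cell label, and they cannot tell LoVo from other epithelial lines. Of 8 colon epithelial markers, 6 had a mean of at least 10, and the most abundant was KRT8, a keratin. Their summed signal was 81126, 85301 and 90776 in Control against 124482, 140309 and 163008 in DCC-2036. Most of this sum came from KRT8. CDH1, the gene of E-cadherin, rose by a log2 fold change of 1.10 (adjusted p = 0.000354, limma). KRT20, a keratin of differentiated colon cells, went the other way, with 64.1, 43.6 and 51.5 in Control against 17.7, 28 and 24.6 in DCC-2036, and no overlap. The log2 fold change of KRT20 was −1.15 (adjusted p = 0.00427, limma), and its call was lost without Control replicate 1 or 3, at 0.0173 to 0.0182. CDX2, a colon transcription factor, was at 316, 283 and 291 in Control against 365, 280 and 213 in DCC-2036. The villus protein gene VIL1 was at most 4.12 and CEACAM5 at most 0.905 in any library, so these markers were near 0. Of 8 markers of leukocytes, fibroblasts and endothelium, 2 had a mean of at least 10. Their summed signal was 415, 409 and 374 in Control against 488, 442 and 561 in DCC-2036, most of it from COL1A1. The leukocyte marker PTPRC was at 0 in all 6 libraries. What part these markers have in the results was not tested. In bulk RNA, fewer cells with a transcript and less of it per cell cannot be told apart.

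Synthetase mRNAs moved in both directions with DCC-2036. Calls were made with limma on log2(value + 1), two-sided, at an adjusted p under 0.01 (Benjamini-Hochberg over the 12725 genes). Of the 20 cytosolic genes, 5 rose, 5 fell and 10 were not called. Of the 16 mitochondrial genes, 4 rose, 5 fell and 7 were not called. Over all genes tested, 19.2% were called higher and 22.7% were called lower. The members' shares, 25% higher in each group, 25% lower in the cytosolic group and 31.2% lower in the mitochondrial group, were near that background. The median log2 fold change was −0.15 for the cytosolic genes and −0.26 for the mitochondrial genes, against −0.09 for all genes tested.

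Groups without any overlap were counted as well. Among all 36 members, 12 had every DCC-2036 value above every Control value and 17 had every DCC-2036 value below. Over all genes tested, 32.9% were separated upward and 38.1% were separated downward. In the remaining 7 members, AARS, RARS, VARS, YARS, CARS2, FARS2 and LARS2, the groups overlapped.

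**Figure D1:**
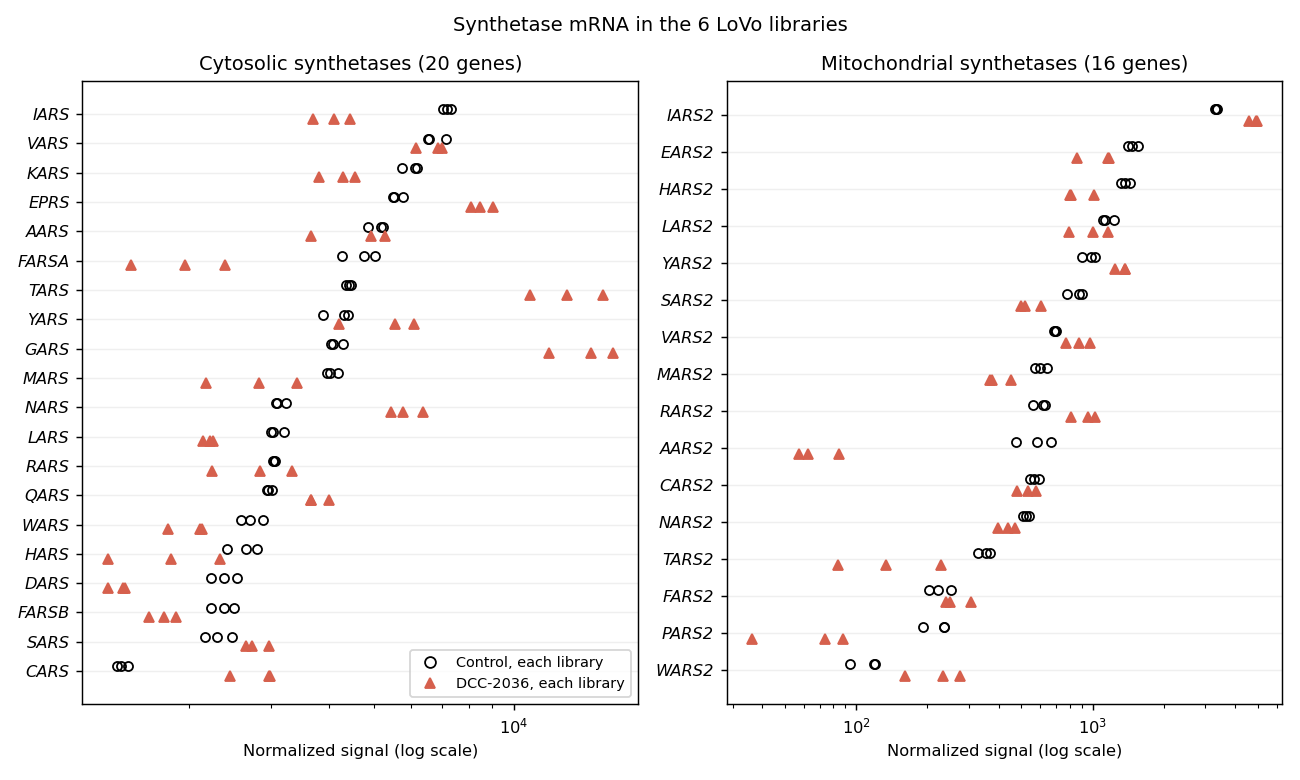
Normalized signal (log scale) of the 20 cytosolic and 16 mitochondrial synthetase genes in each of the 3 Control libraries (circles) and 3 DCC-2036 libraries (triangles), ordered by the Control mean. GARS and TARS have their lowest DCC-2036 values at 11901 and 10839, above all of their Control values, while AARS2 falls from a Control mean of 574 to 68.3.

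The counts of calls changed when single libraries were left out. Such fits also hold fewer libraries, and the part of that in the changes was not tested. Without any 1 Control library, or without DCC-2036 replicate 2, limma called 929 to 968 genes higher in place of 2442 and 1502 to 1650 genes lower in place of 2887. Without Control replicate 1, 2 or 3, the cytosolic genes called lower numbered 3, 2 and 2, and without DCC-2036 replicate 2 they numbered 3. The mitochondrial genes called lower were 1 in each of these 4 fits, and those called higher were 0, with 4 at an unadjusted p under 0.05. Without DCC-2036 replicate 3, 2 mitochondrial genes were called higher. Scaling the libraries to equal totals also took the mitochondrial genes called higher to 0, with 4 at an unadjusted p under 0.05. That scaling moved the median of all genes from −0.09 to −0.28, and the share of higher genes among calls from 45.8% to 33.7%. Relative to the median of all genes, the cytosolic median lay at −0.05 as deposited and at −0.06 after that scaling, and the mitochondrial median at −0.16 and −0.17. Without DCC-2036 replicate 3 the relative cytosolic median was 0.07 and the mitochondrial one −0.13, and without DCC-2036 replicate 1 they were −0.16 and −0.24. CARS, GARS, IARS, NARS, TARS and AARS2, 6 of the 19 called genes, kept their call and direction under every alternative run.

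**Figure D2:**
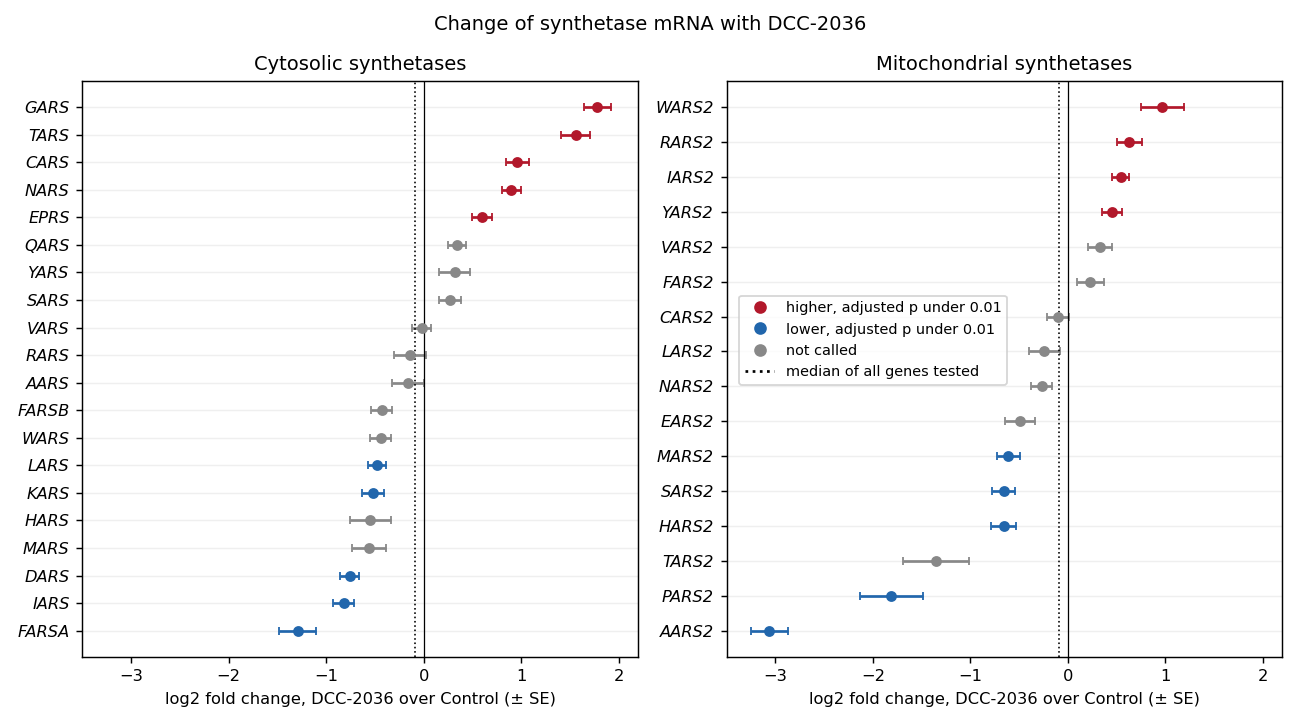
The log2 fold change of each synthetase gene, DCC-2036 over Control, with its standard error, ordered by size (red, higher; blue, lower; grey, not called; dotted line, median of all genes tested). Cytosolic genes run from 1.78 for GARS to −1.29 for FARSA, and mitochondrial genes from 0.97 for WARS2 to −3.06 for AARS2; VARS, near 0, changed sign under a pair of the scalings tried.

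The largest rises, those of GARS and TARS, were in cytosolic enzymes outside the multisynthetase complex. GARS, the glycyl enzyme, which also supplies mitochondria, was at 4041, 4074 and 4288 in Control against 11901, 14718 and 16385 in DCC-2036. All 3 treated libraries lay far above the Control libraries, and the mean went from 4134 ± 134 to 14335 ± 2267 (SD, n = 3 libraries). This was a log2 fold change of 1.78 ± 0.14 (SE), with an adjusted p of 0.000302 (limma). TARS, the threonyl enzyme, had 4427, 4460 and 4352 in Control against 10839, 13064 and 15561 in DCC-2036. Here too no value of one group reached the other, and the DCC-2036 libraries were far more spread out than the Control libraries. Its log2 fold change was 1.56 ± 0.15 (SE), with an adjusted p of 0.000483 (limma). Ranked by log2 fold change, GARS was number 215 and TARS number 315 from the top among the 12725 genes.

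CARS, the cysteinyl enzyme, was at 1424, 1396 and 1473 in Control against 2966, 2984 and 2443 in DCC-2036. NARS, the asparaginyl enzyme, was at 3235, 3073 and 3088 in Control against 5455, 5776 and 6377 in DCC-2036. Both genes were higher in all 3 treated libraries without overlap. Their log2 fold changes were 0.96 ± 0.12 for CARS (adjusted p = 0.001, limma) and 0.90 ± 0.10 for NARS (adjusted p = 0.000848, limma), the errors being SE. The calls of GARS, TARS, CARS and NARS were kept in all 6 fits that left out 1 library.

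FARSA went the other way. It encodes the catalytic subunit of the cytosolic phenylalanyl enzyme, a tetramer of FARSA and FARSB chains. FARSA had 4267, 4768 and 5035 in Control against 2389, 1958 and 1497 in DCC-2036. Every treated library lay below every Control library, at a mean of 41.5% of Control. On the log2 scale the change was −1.29 ± 0.19 (SE), with an adjusted p of 0.00176 (limma). Without Control replicate 3 the adjusted p was 0.0105, just past the limit. FARSB had 2226, 2376 and 2500 in Control against 1875, 1764 and 1633 in DCC-2036, also without overlap. Its log2 fold change was −0.43 ± 0.11 (SE), which was not called (adjusted p = 0.0127, limma).

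Because these chains form one enzyme, their log2 ratio was taken within each library. FARSA over FARSB was 0.94, 1.00 and 1.01 in Control against 0.35, 0.15 and −0.12 in DCC-2036. The ratio was lower in every treated library, by −0.86 on the log2 scale between the means. The two-sided exact permutation test gave p = 0.1, the smallest value that 3 against 3 libraries allow.

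Besides FARSB, 6 cytosolic genes outside the complex were not called. AARS, the alanyl enzyme, had 4846, 5170 and 5242 in Control against 5292, 4917 and 3654 in DCC-2036. The groups overlapped, and only DCC-2036 replicate 3 stood clearly below Control. AARS had a log2 fold change of −0.16 (adjusted p = 0.416, limma), which became 0.0050 when DCC-2036 replicate 3 was left out. YARS, the tyrosyl enzyme, had 3890, 4312 and 4398 in Control against 6097, 5562 and 4200 in DCC-2036. Its first treated libraries were above all Control libraries and its last was among them, for a log2 fold change of 0.32 (adjusted p = 0.128, limma). HARS, the histidyl enzyme, had a log2 fold change of −0.55 ± 0.21 (SE; adjusted p = 0.0569, limma). Without DCC-2036 replicate 1 the adjusted p of HARS was 0.00993, which made it a call. WARS was at −0.44 (adjusted p = 0.0154), SARS at 0.27 (adjusted p = 0.0639) and VARS at −0.02 (adjusted p = 0.886), all log2 fold changes from limma.

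The other 8 cytosolic genes encode enzymes of the multisynthetase complex, a large particle that holds the enzymes for 9 amino acids around 3 scaffold proteins. Of its enzyme genes, 1 rose, 4 fell and 3 were not called, with a median log2 fold change of −0.50. These are shares of 12.5% higher and 50% lower, against 19.2% and 22.7% of all genes tested. The 12 cytosolic genes outside it had 4 rises and 1 fall, or 33.3% and 8.33%, and a median of 0.13. After scaling to equal totals, 3 genes outside it were called lower, and 4 in it. Whether the complex differs from the other enzymes was not tested.

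EPRS, which carries both the glutamyl and the prolyl activity in one chain, was the gene of the complex that rose. It had 5525, 5779 and 5506 in Control against 8076, 8483 and 9020 in DCC-2036, with no overlap. That gave a log2 fold change of 0.60 ± 0.10 (SE), with an adjusted p of 0.00253 (limma). IARS, the isoleucyl enzyme, had 7336, 7046 and 7185 in Control against 4436, 4090 and 3693 in DCC-2036. All treated libraries were below Control, at 56.7% of the Control mean. Its log2 fold change was −0.82 ± 0.11 (SE), with an adjusted p of 0.00128 (limma). DARS, the aspartyl enzyme, had 2225, 2532 and 2375 in Control against 1333, 1435 and 1453 in DCC-2036. Its treated libraries were close together and below Control, with a log2 fold change of −0.76 ± 0.10 (SE; adjusted p = 0.00143, limma).

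The lysyl enzyme gene KARS, which serves both compartments, had 5740, 6120 and 6206 in Control against 4540, 4295 and 3813 in DCC-2036. LARS, the leucyl enzyme, had 3034, 3193 and 2992 in Control against 2244, 2218 and 2143 in DCC-2036. In both genes the treated libraries were lower without overlap, to 70% and 71.6% of the Control mean. The log2 fold changes were −0.52 for KARS (adjusted p = 0.00701, limma) and −0.48 for LARS (adjusted p = 0.00485, limma).

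Several calls in the complex were lost with 1 library fewer. Without any 1 Control library or DCC-2036 replicate 2, the adjusted p (limma) was 0.0141 to 0.0151 for EPRS, 0.0221 to 0.0345 for KARS and 0.0209 to 0.0303 for LARS. For DARS it was 0.0103 without Control replicate 2. Under scaling by the median of ratios, the complex genes called lower numbered 2 in place of 4.

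MARS, QARS and RARS of the complex were not called. MARS, the methionyl enzyme, had 3968, 4026 and 4191 in Control against 3410, 2830 and 2174 in DCC-2036. Its groups did not overlap, but the treated libraries differed widely. MARS had a log2 fold change of −0.56 ± 0.17 (SE; adjusted p = 0.0296, limma). Leaving out DCC-2036 replicate 1 gave an adjusted p of 0.00667, past the limit for a call. QARS, the glutaminyl enzyme, had a log2 fold change of 0.34 (adjusted p = 0.0188, limma). RARS, the arginyl enzyme, had −0.14 with overlapping groups (adjusted p = 0.465, limma), and its log2 fold change became 0.0132 when DCC-2036 replicate 3 was left out.

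The genes of the 3 scaffold proteins did not move together. AIMP1 had 983, 1063 and 928 in Control against 1630, 1916 and 2415 in DCC-2036. AIMP2 had 1043, 1111 and 1239 in Control against 717, 726 and 623 in DCC-2036. The first was higher and the second lower in every treated library. AIMP1 rose by a log2 fold change of 0.99 ± 0.16 (SE; adjusted p = 0.00282, limma), and AIMP2 changed by −0.71 ± 0.12 (SE; adjusted p = 0.00288, limma). Both calls were lost without any 1 Control library or DCC-2036 replicate 2, at an adjusted p of 0.0116 to 0.0151 for AIMP1 and 0.0102 to 0.0153 for AIMP2. EEF1E1, the smallest scaffold, was not called, with a log2 fold change of 0.17 (adjusted p = 0.206, limma).

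Among mitochondrial enzymes the alanyl gene AARS2 had the largest change of all 36 members. It had 474, 583 and 666 in Control against 84.9, 57.5 and 62.4 in DCC-2036. The groups were far apart, and the DCC-2036 mean of 68.3 ± 14.6 (SD, n = 3 libraries) was 11.9% of the Control mean of 574 ± 96.3. This was a log2 fold change of −3.06 ± 0.19 (SE), with an adjusted p of 0.000211 (limma). AARS2 was number 32 from the lowest log2 fold change among the 12725 genes. Its call was kept without each library in turn.

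PARS2, the prolyl enzyme, had 192, 235 and 235 in Control against 88, 73.5 and 36.2 in DCC-2036. All treated libraries were below Control, at 29.9% of its mean, and replicate 3 was the lowest. On the log2 scale PARS2 changed by −1.81 ± 0.32 (SE), with an adjusted p of 0.00379 (limma). TARS2, the threonyl enzyme, had 327, 355 and 368 in Control against 229, 134 and 83.4 in DCC-2036. Its treated libraries were also all lower, but they spread over a wide range. For TARS2 the log2 fold change was −1.35 ± 0.34 (SE), which was not called (adjusted p = 0.0145, limma). Without DCC-2036 replicate 1 the adjusted p of TARS2 was 0.00135, past the limit for a call.

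Smaller falls were called in SARS2, HARS2 and MARS2. SARS2, the seryl enzyme, had 899, 780 and 878 in Control against 496, 516 and 606 in DCC-2036. HARS2, the histidyl enzyme, had 1319, 1368 and 1445 in Control against 1010, 806 and 809 in DCC-2036. MARS2, the methionyl enzyme, had 572, 599 and 640 in Control against 368, 375 and 450 in DCC-2036. None of these 3 genes had a treated value within the Control range. The log2 fold changes were −0.66 for SARS2 (adjusted p = 0.0043), −0.66 for HARS2 (adjusted p = 0.00475) and −0.61 for MARS2 (adjusted p = 0.00554), all by limma.

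WARS2, the tryptophanyl enzyme, had the lowest Control signal per kb of the 36 genes and the largest rise of a mitochondrial one. It had 119, 120 and 94.6 in Control against 161, 233 and 274 in DCC-2036. The groups did not overlap, and the mean went from 111 ± 14.4 to 222 ± 57 (SD, n = 3 libraries). Its log2 fold change was 0.97 ± 0.22 (SE; adjusted p = 0.00885, limma). RARS2, the arginyl enzyme, had 631, 557 and 617 in Control against 811, 959 and 1026 in DCC-2036. IARS2, the isoleucyl enzyme, had 3356, 3316 and 3284 in Control against 4918, 4967 and 4590 in DCC-2036. YARS2, the tyrosyl enzyme, had 904, 988 and 1024 in Control against 1247, 1366 and 1375 in DCC-2036. In each gene all treated libraries were higher, with log2 fold changes of 0.63 for RARS2 (adjusted p = 0.0059), 0.54 for IARS2 (adjusted p = 0.00325) and 0.45 for YARS2 (adjusted p = 0.00969), by limma.

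Apart from AARS2, the mitochondrial calls were lost in some of the fits with 1 library fewer. Without any 1 Control library or DCC-2036 replicate 2, the adjusted p (limma) was 0.0117 to 0.0179 for PARS2, 0.0136 to 0.0218 for SARS2 and 0.0177 to 0.0238 for HARS2. It was 0.0161 to 0.0199 for IARS2 and 0.0199 to 0.0297 for RARS2 in the same fits. MARS2 also lost its call without DCC-2036 replicate 1, with a range of 0.0108 to 0.0273. WARS2 and YARS2 also lost theirs without DCC-2036 replicate 3, with ranges of 0.0146 to 0.0355 and 0.0146 to 0.0439.

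The other mitochondrial genes were not called by limma. EARS2, the glutamyl enzyme, had a log2 fold change of −0.49 (adjusted p = 0.0282), with no overlap. NARS2 was at −0.27 (adjusted p = 0.0647) and VARS2 at 0.33 (adjusted p = 0.0473), also without overlap. LARS2 at −0.24 (adjusted p = 0.21), CARS2 at −0.10 (adjusted p = 0.443) and FARS2 at 0.23 (adjusted p = 0.193) had overlapping groups.

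Synthetases fall into class I and class II by the fold of the catalytic domain. Of the 9 mitochondrial genes of class I, 4 rose and 1 fell, with a median log2 fold change of 0.33. Of the 7 of class II, 4 fell and 3 were not called, with a median of −0.66. The 9 cytosolic genes of class I had 1 rise and 2 falls, and the 10 of class II had 3 of each, while EPRS holds a domain of both classes. Over all genes tested, 19.2% were called higher and 22.7% lower. The 4 mitochondrial rises of class I are all of the mitochondrial rises, and their count was 0 after scaling to equal totals and in the fits without any 1 Control library or DCC-2036 replicate 2, with 4 mitochondrial genes higher at an unadjusted p under 0.05 (limma) in each. In the same 4 fits with 1 library fewer, the mitochondrial falls of class II went from 4 to 1 and the cytosolic falls of class I from 2 to 1. Cytosolic falls of class II went from 3 to 1 without Control replicate 2 or 3. They went to 2 without Control replicate 1 or DCC-2036 replicate 2. This grouping was made after the values had been seen and was not tested.

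Levels of different genes were compared as Control signal per kb of transcript. The cytosolic genes ran from 519 for CARS to 2585 for FARSA, with a median of 1262. The mitochondrial genes ran from 39.6 for WARS2 to 932 for IARS2, with a median of 242. Only 4 cytosolic genes, CARS, FARSB, LARS and WARS, lay below IARS2. These levels count the kept transcript of each gene and leave out signal on its other transcripts. CARS, LARS and WARS have 4 transcripts each in the table, and FARSB and IARS2 have 1. In DCC-2036 the highest signal per kb was that of GARS, at 5442, followed by TARS, at 5214.

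Each mitochondrial gene was then set against its cytosolic counterpart within the same library, since a ratio needs no scaling between libraries. The 16 pairs take EPRS as the counterpart of both EARS2 and PARS2, and FARSA as that of FARS2. In 7 pairs the cytosolic over mitochondrial log2 ratio was higher in every DCC-2036 library than in any Control library, in 5 it was lower in every one, and in 4 the groups overlapped. Separation was common in these data, since among single genes tested 32.9% were separated upward and 38.1% downward. Each of the 12 separated pairs had p = 0.1 by the two-sided exact permutation test, the smallest that 3 against 3 libraries allow. Adjusted over the 16 pairs by the Benjamini-Hochberg method this p was 0.133, so no pair could pass a limit.

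For alanine the difference between compartments lay in the mitochondrial gene. The log2 ratio of AARS to AARS2 was 3.35, 3.15 and 2.98 in Control against 5.95, 6.39 and 5.85 in DCC-2036. For threonine the cytosolic gene rose, while TARS2 was lower in every treated library but not called. The log2 ratio of TARS to TARS2 was 3.75, 3.65 and 3.56 in Control against 5.56, 6.59 and 7.53 in DCC-2036. The difference of the means was 2.90 for alanine and 2.91 for threonine, each with an exact p of 0.1. For proline the log2 ratio of EPRS to PARS2 differed by 2.42 between the groups. Smaller differences of the same sign were 1.17 for asparagine, 1.09 for glutamate, 1.06 for cysteine and 0.93 for serine, with an exact p of 0.1 for each.

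For isoleucine the order of the pair turned round in the transcripts kept. IARS has 2 transcripts in the table and IARS2 has 1. The order with the signal of both IARS transcripts added was not examined. The log2 ratio of IARS to IARS2 was 1.13, 1.09 and 1.13 in Control against −0.15, −0.28 and −0.31 in DCC-2036. The ratio was above 0 in every Control library and below 0 in every treated one. Per kb of transcript, the mean signal of IARS was 1544 in Control and 875 in DCC-2036, and that of IARS2 was 932 and 1355. The difference was −1.36 with an exact p of 0.1. IARS with IARS2 and EPRS with PARS2 were the 2 pairs whose genes were called in opposite directions. No pair was called in the same direction in the fit of all 6 libraries. Of all genes tested, 19.2% were called higher and 22.7% lower. IARS2, EPRS and PARS2 lost their calls without any 1 Control library or DCC-2036 replicate 2, so neither pair kept both calls there. Scaling to equal totals also took the call of IARS2. Without DCC-2036 replicate 1, HARS (adjusted p = 0.00993) and HARS2 (adjusted p = 0.00155) were both called lower by limma. Further negative differences were −1.52 for phenylalanine, −1.41 for tryptophan, −0.76 for arginine and −0.34 for valine, each with an exact p of 0.1.

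The overlapping pairs were histidine, leucine, methionine and tyrosine. Their differences in log2 ratio were 0.11 for histidine (exact p = 0.5), −0.24 for leucine (exact p = 0.3), 0.05 for methionine (exact p = 0.9) and −0.14 for tyrosine (exact p = 0.7). In histidine and methionine, both genes had negative log2 fold changes of like size, and with 3 libraries a group these tests do not show equal change.

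HARS and HARS2 lie head to head, transcribed away from each other. In RefSeq on GRCh38.p14 their starts are separated by 84 bases at chr5:140691371-140691454, given here on the + strand because the pair shares this promoter stretch. Capitals mark CCGGAA or its reverse complement, letters known from binding sites of ETS factors.
HARS and HARS2: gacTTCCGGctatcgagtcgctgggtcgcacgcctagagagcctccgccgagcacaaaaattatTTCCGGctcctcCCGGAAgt
These letters occur 3 times over both strands. Of 35116 promoter windows cut to the 84 bases before the start, 7.88% hold at least 1 match and 0.191% hold at least 3. A match is a description and was not tied to any binding here.

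Promoters of the synthetases were searched for the letters TGATGCAA, the core to which ATF4 binds with a C/EBP partner, on both strands. RefSeq windows from 250 bases before to 50 after a start were at hand for 30 of the 36 genes, and those of DARS, LARS, VARS, YARS, AARS2 and VARS2 were not used here. The letters were found in 6 of 16 cytosolic genes and in 0 of 14 mitochondrial genes, against 1.08% of the 27305 genes with a window. With any base at the sixth position, TGATGNAA, which includes the first motif, they were found in 7 of the cytosolic genes, in 1 mitochondrial gene, and in 4.46% of all genes. The windows around each match are shown on the strand of the gene, with the match in capitals, so that TTGCATCA is TGATGCAA read from the other strand.
AARS, chr16:70289676-70289703, - strand: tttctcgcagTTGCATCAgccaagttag
CARS, chr11:3057408-3057435, - strand: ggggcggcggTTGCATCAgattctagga
IARS, chr9:92293693-92293720, - strand: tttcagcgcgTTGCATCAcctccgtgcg
MARS, chr12:57488054-57488081, + strand: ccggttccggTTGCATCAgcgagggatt
NARS, chr18:57621805-57621832, - strand: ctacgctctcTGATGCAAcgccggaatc
TARS, chr5:33440957-33440984, + strand: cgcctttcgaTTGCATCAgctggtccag
GARS, chr7:30594835-30594862, + strand: tacgcggcgaTTTCATCAtgctccgagc
YARS2, chr12:32756077-32756104, - strand: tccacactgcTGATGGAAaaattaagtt
Coordinates are of GRCh38.p14. Among the 6 genes with TGATGCAA, CARS, NARS and TARS rose, IARS fell, and AARS and MARS were not called. GARS and YARS2, whose match has another base at the open position, both rose. The call of YARS2 was lost without any 1 Control library, DCC-2036 replicate 2 or DCC-2036 replicate 3. Of all genes tested, 19.2% were called higher and 22.7% lower. IARS was the only called fall among the genes with a match, and no binding was measured.

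ATF4 itself had 5674, 6016 and 5841 in Control against 8606, 10189 and 11608 in DCC-2036, a log2 fold change of 0.78 (adjusted p = 0.00316, limma). Of 10 genes made up of ATF4 and known targets outside the synthetases, 8 rose and 2 were not called, with a median log2 fold change of 1.58. The largest were in SLC7A11, ASNS and PSAT1, at 3.17, 2.43 and 1.92. Those not called were DDIT3 at −0.13 (adjusted p = 0.283) and CEBPB at −0.14 (adjusted p = 0.346), by limma. Over all genes tested 19.2% were called higher and 22.7% lower. The call of ATF4 was lost without any 1 Control library or DCC-2036 replicate 2, at an adjusted p of 0.015 to 0.0164. Of 3 genes around the sensing of uncharged tRNA, IMPACT, an inhibitor of GCN2 activation, rose by a log2 fold change of 0.61 (adjusted p = 0.00467, limma). It lost its call in the same 4 fits, at 0.0215 to 0.0221, as did CHAC1 among the ATF4 targets, at 0.0184 to 0.0223. EIF2AK4, which encodes GCN2, was at −0.28 (adjusted p = 0.0825) and GCN1, its activator, at −0.22 (adjusted p = 0.307), neither called by limma.

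**Figure D3:**
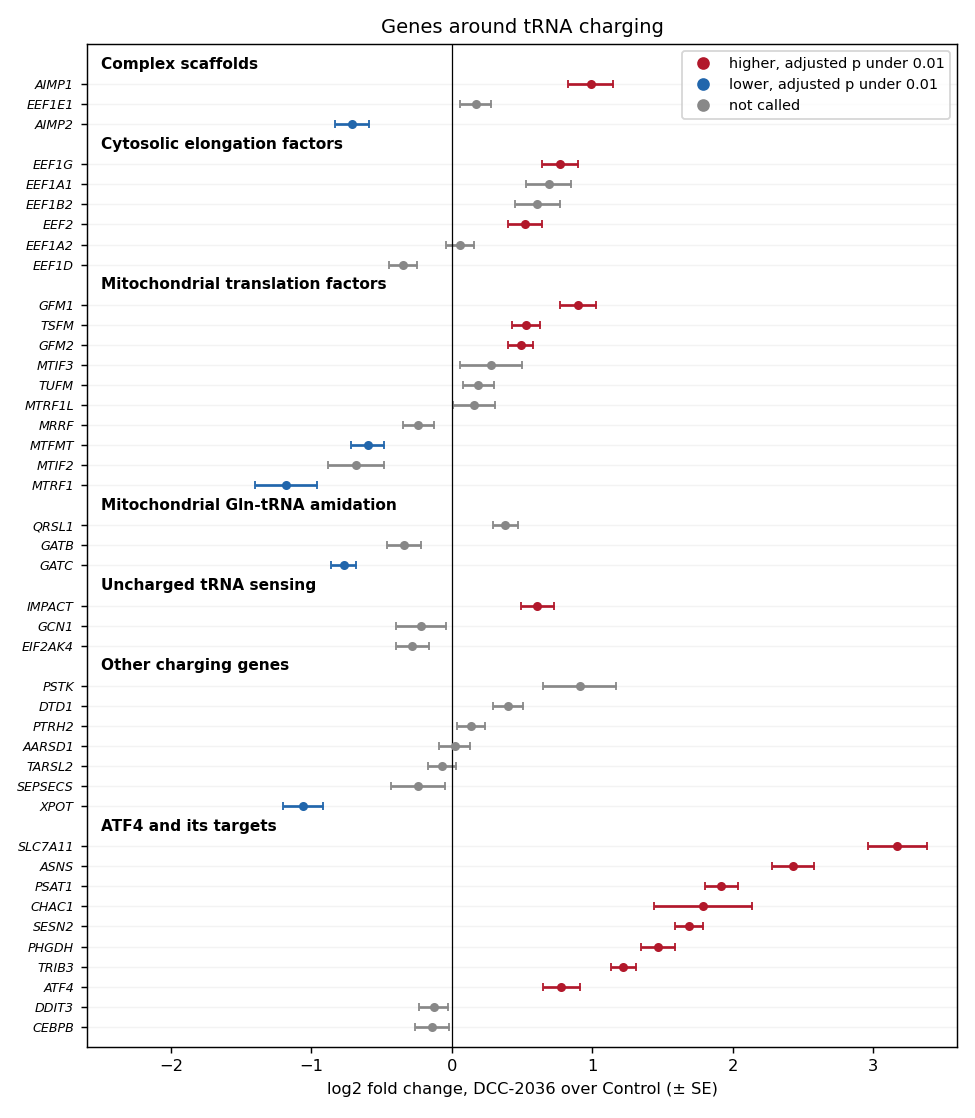
The log2 fold change, DCC-2036 over Control, with its standard error, of genes that work with the synthetases, by list (red, higher; blue, lower; grey, not called). In the list of ATF4 and its targets 8 of 10 genes were called higher, and XPOT among the other charging genes lies at −1.06.

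Of 7 other genes around tRNA charging, 1 fell and 6 were not called. That is 14.3% lower, against 22.7% of all genes tested. XPOT, which exports tRNA from the nucleus, had 2636, 2592 and 2615 in Control against 1500, 1181 and 1109 in DCC-2036, lower in every treated library. Its log2 fold change was −1.06 (adjusted p = 0.00123, limma). Mitochondria make glutaminyl-tRNA by an amidation step, and of its 3 genes GATC fell, with 1648, 1731 and 1679 in Control against 950, 1022 and 987 in DCC-2036. This 1 of 3 is 33.3%, against the same 22.7%. The log2 fold change of GATC was −0.77 (adjusted p = 0.000964, limma), while GATB was at −0.34 (adjusted p = 0.0473) and QRSL1 at 0.38 (adjusted p = 0.0126).

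Charged tRNA is handed to elongation factors. Of 6 cytosolic elongation factor genes, EEF1G and EEF2 rose, with log2 fold changes of 0.77 (adjusted p = 0.00276) and 0.52 (adjusted p = 0.00875) by limma. That is 33.3% of the list, against 19.2% higher over all genes tested, and after scaling to equal totals 1 of the 6 was called higher and 1 lower. EEF1A1, which carries the charged tRNA to the ribosome, was at 0.69 (adjusted p = 0.0117), and EEF1B2 at 0.61 (adjusted p = 0.016). Without DCC-2036 replicate 1 these became calls, at 0.00301 to 0.00934 for EEF1A1, also without replicate 3 of that group, and at 0.00637 for EEF1B2. EEF1G and EEF2 lost theirs without any 1 Control library or DCC-2036 replicate 2, at 0.0117 to 0.015 and 0.0144 to 0.0391, EEF2 also without DCC-2036 replicate 3. EEF1D was at −0.35 (adjusted p = 0.0206) and EEF1A2 at 0.06 (adjusted p = 0.62).

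In the mitochondrial list of 10 translation factors, 3 rose, 2 fell and 5 were not called, with a median of 0.18. These shares, 30% and 20%, were near the 19.2% and 22.7% of all genes tested, and after scaling to equal totals 1 was called higher and 3 lower. GFM1, an elongation factor, had a log2 fold change of 0.90 (adjusted p = 0.00184), TSFM 0.53 (adjusted p = 0.00545) and GFM2 0.49 (adjusted p = 0.00447), by limma. MTRF1, a release factor paralog, was at −1.18 (adjusted p = 0.00445), and MTFMT, which formylates the initiator methionyl-tRNA, was at −0.60 (adjusted p = 0.00551). These calls were also lost with 1 library fewer. The adjusted p was 0.0202 to 0.0279 for TSFM, 0.0174 to 0.0259 for GFM2 and 0.0173 to 0.0278 for MTFMT without any 1 Control library or DCC-2036 replicate 2. It was 0.0109 to 0.0112 for GFM1 without Control replicate 1 or 3, and 0.0143 to 0.0209 for MTRF1 without Control replicate 1 or 2 or DCC-2036 replicate 2.

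Treated libraries differed more among themselves than Control libraries did. The median SD of the log2 values of the 36 genes was 0.07 in Control and 0.17 in DCC-2036, against 0.10 and 0.23 over all genes tested. Of the 36 members, 22 had their lowest treated value in DCC-2036 replicate 3 and 20 their highest in DCC-2036 replicate 1. In Control, 22 had their lowest value in replicate 1 and 25 their highest in replicate 3. Relative to the Control mean, the cytosolic median was 0.06, −0.07 and −0.46 on the log2 scale in DCC-2036 replicates 1, 2 and 3. The mitochondrial median was −0.20, −0.23 and −0.41, and the median of all genes −0.03, −0.07 and −0.12. Replicate 3 was therefore the lowest library in both groups of enzymes. The cytosolic median log2 fold change was 0.009 without DCC-2036 replicate 3 and −0.27 without DCC-2036 replicate 1.

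Several members share exon positions or sequence with other genes in the GENCODE 29 annotation. Exons of 10 members overlap those of another protein-coding gene with a mean of at least 100, and of the called members these are KARS with TERF2IP, HARS2 with HARS and ZMAT2, and SARS2 with MRPS12. MARS overlaps DDIT3 in the same way. The library kit named in the labels does not mark strand, and how reads were assigned is not given in the sources used here, so the values of these genes are less certain. In addition, 11 members have annotated pseudogenes named after them, among them GARS, CARS, NARS, KARS, IARS2 and WARS2. For 16 members the table has 1 transcript, and for the others the widest range of log2 fold changes among transcripts of 1 gene was that of HARS, from −0.58 to −0.47.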

How the data were processed

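RNA of LoVo cells was measured in 3 Control and 3 DCC-2036 libraries, and the groups follow the sample titles. The table deposited by the authors holds a normalized signal per RefSeq transcript and library, adjusted between libraries by the authors. The values are not whole reads, so depth is unknown. The aligner, genome build and annotation are not given in the sources used here. For each transcript the authors deposited their own comparison as well, in columns of p-value, q-value and log2 fold change. None of these was used.

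A count model had been laid down for read counts. Since the values were not counts, limma 3.58.1 in R 4.3.3 was used on log2(value + 1), as laid down for that case, without covariates. Fold changes on this scale understate changes of low genes. Tests covered genes reaching 10 in 3 or more libraries and were two-sided, with Benjamini-Hochberg adjustment and calls at an adjusted p under 0.01. Exact permutation tests were made in Python 3.11.15 with scipy 1.17.1, pandas 2.3.3 and numpy 2.4.6, and plots with matplotlib 3.10.9. Lengths and exon overlaps came from GENCODE 29, and promoter windows from RefSeq on GRCh38.p14. The code was tested on simulated data.

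The members and lists were chosen with earlier results of these data known. All 36 members could be named. A gene of the list of other charging genes is not reported here, and the counts are over the remaining 7. Of further lists of at most 6 genes any could be named, and of longer ones the 3 highest and 3 lowest called. CHAC1, DDIT3, CEBPB and the marker genes CDX2, CDH1, KRT20, VIL1 and CEACAM5 were singled out after their values had been seen. Alternatives were 3 scalings, other filters, a pseudocount of 0.1, summed transcripts, a replicate block, a mean-variance trend, a limit of 0.05 and each library left out in turn. Count models could not be run on these values.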

Additional observations from a re-analysis of the deposited data

How the results depend on the processing

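Of the 19 called genes, 0 changed direction under any alternative. Of the other members, 3 did: AARS (0.0050, lowest −0.26 with 1 library left out) and RARS (0.0132, lowest −0.27) without DCC-2036 replicate 3, and VARS under scaling by the median of ratios (0.0631) or the upper quartile (0.0018) and without Control replicate 3 (0.0244) or DCC-2036 replicate 3 (0.0396, lowest −0.06 with 1 library left out), all log2 fold changes near 0. A further 8 members that were not called became calls under some alternative.

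Equal totals took the mitochondrial genes called higher from 4 to 0, the cytosolic median to −0.34 and the mitochondrial median to −0.45. The median of ratios gave 3 cytosolic genes called lower and a cytosolic median of −0.065. Without a filter on low values, 16667 genes were tested, and 3 cytosolic genes were called lower, 1 mitochondrial gene higher and 2 lower. Summed transcripts gave 2 mitochondrial genes called higher, and a limit of 0.05 gave 8 cytosolic genes called lower. The cause was not tested.

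With each library left out in turn, 929 to 2717 genes were called higher and 1502 to 3444 lower. The cytosolic genes called higher ran from 4 to 5 and lower from 2 to 7, and the mitochondrial ones from 0 to 4 and from 1 to 5. The cytosolic median ran from −0.27 to 0.009 and the mitochondrial median from −0.35 to −0.19. Fewer libraries enter these fits.

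The replicate block called 1202 genes higher and 1909 lower, 2 cytosolic genes lower, and of the mitochondrial genes 0 higher (4 at an unadjusted p under 0.05, limma) and 1 lower. Deviations of same-numbered libraries correlated at 0.081, −0.035 and −0.003, so the numbers share only a number. The ratio counts, 7 and 5 pairs, differed only without DCC-2036 replicate 1 (7 and 6) and without DCC-2036 replicate 3 (9 and 6). Depth is unknown, so its limit on low genes could not be given.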
